A study of Mus musculus with 12 samples.

Results

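The interferon-stimulated genes described here are 35 mouse genes, taken by name from the 41457 genes of the deposited tables because type I interferon (IFN-α and IFN-β) or type II interferon (IFN-γ) is known to induce them. Their RNA was counted in 12 poly(A) libraries of CD4+ T cells from spleen and lymph nodes of C57BL/6 mice that had been cultured toward the helper subsets Th1, Th2 or Th17. The cells came from NFATc1/ΔS mice, in which the T cell transcription factor NFATc1 cannot be SUMOylated, or from wild type (WT) mice, and were collected on day 3.5 or day 2.5. Each of the 12 combinations of culture, genotype and day was 1 library, and the labels give neither the number nor the age of the mice. All cultures received anti-CD3 and anti-CD28. Th1 cultures also received IL-12 and anti-IL-4, Th2 cultures IL-4 and anti-IFN-γ, and Th17 cultures TGF-β, IL-6, anti-IFN-γ and anti-IL-4. Anti-IFN-γ was thus present in the Th2 and Th17 cultures and not in the Th1 cultures, and this antibody and the helper subset cannot be told apart. Gene counts do not distinguish the NFATc1/ΔS allele from the WT allele. The Th17 cultures also had IMDM in place of RPMI and less anti-CD3.

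Interferons bind paired receptors that carry the kinases Jak1, Jak2 or Tyk2. Type I interferon activates a complex that includes STAT2 and IRF9 and binds interferon-stimulated response elements, and IFN-γ signals to GAS elements. IFN-γ is the signature cytokine of Th1 cells and acts back on the cells that make it, through IRF1 and T-bet among others. The 35 members were arranged by role. They were 4 transcription factors of the pathway, 12 antiviral effectors and feedback proteins, 5 nucleic acid sensors and ADP-ribosylation factors, 3 membrane restriction factors, 8 guanylate-binding and immunity-related GTPases, and 3 antigen-processing proteins.

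Total gene reads were between 13417121 and 17774400 per library, and values below are CPM, reads of a gene per 1000000 reads of the library with its total scaled by TMM (trimmed mean of M-values), unless another scale is named. Where 4 values are given for a culture, they stand in the order NFATc1/ΔS on day 3.5, WT on day 3.5, NFATc1/ΔS on day 2.5 and WT on day 2.5. The labelled cultures carried their own lineage genes: of 5 markers each, 4 Th1 markers were higher in Th1 than in Th2 and in Th17, 5 Th2 markers were higher in Th2 than in Th17, and 5 Th17 markers were lower in Th2 than in Th17. Both day 2.5 Th1 libraries stood apart from the day 3.5 Th1 libraries. Across genes, log2 CPM of the WT day 2.5 Th1 library correlated at 0.959 to 0.976 with the Th17 libraries and at 0.940 to 0.948 with the other Th1 libraries, and the NFATc1/ΔS day 2.5 Th1 library at 0.908 to 0.948 with the other Th1 libraries. The day 3.5 Th1 libraries correlated at 0.991 with each other and at 0.890 to 0.943 with all other libraries. Which day is typical of Th1 cannot be told from these values. Comparisons that rest on the day 2.5 Th1 libraries are therefore given with and without them. Traces of other cells were present: the summed level of 6 B cell markers was 3.99 to 8.31 CPM in Th1, 30.8 to 42.8 CPM in Th2 and 13.8 to 29.3 CPM in Th17, and 3 dendritic cell markers summed to 0.588 to 2.03, 5.04 to 8.49 and 1.497 to 3.18 CPM in Th1, Th2 and Th17. The 2 plasmacytoid dendritic cell markers summed to 4.97 to 7.45 CPM in Th1, 14.4 to 20.2 CPM in Th2 and 7.43 to 11.3 CPM in Th17, nearly all of it Tcf4, since Siglech had 0 reads in 11 libraries. For 4 markers of CD8 T and NK cells the sum was 17.7 to 44.9 CPM in Th1, 23.5 to 31.6 CPM in Th2 and 27.9 to 47.7 CPM in Th17. For 4 myeloid markers it was 0.056 to 0.850 CPM in Th1, 1.11 to 1.97 CPM in Th2 and 0.210 to 1.12 CPM in Th17. In such bulk RNA, fewer cells of a type and less RNA per cell cannot be told apart.

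Promoter windows of RefSeq (build GRCm38.p6, 250 bases before to 50 bases after the transcript start) were found for 27 of the 35 members. Each was searched on both strands for the core of the interferon response element, GAAANNGAA, and for the GAS element, TTCNNNGAA, which reads the same on both strands. The IRF core was in 19 of the 27 members, against 8.56% of all 32851 windows, and GAS was in 8 of the 27, against 8.30%. Both were in 6 members, against 1.07% of all windows, and neither was in 6 members, against 84.21%. A member counted as having a motif if any of its windows did. Of the 30 windows of the members, 19 had the IRF core, 8 had GAS and 6 had both. A match of letters is a description and not a bound site. The windows below belong to members that the comparisons turn on, read 5′ to 3′ on the gene's strand, with matches to either motif in capitals. Irf1 lies at chr11:53769764-53770063 (plus strand, the upstream of its 2 windows), Gbp2 at chr3:142620413-142620712 (plus), Igtp at chr11:58199306-58199605 (plus), Tgtp1 at chr11:48992197-48992496 (minus), Tgtp2 at chr11:49064163-49064462 (minus) and Ifitm3 at chr7:141010695-141010994 (minus).
Irf1: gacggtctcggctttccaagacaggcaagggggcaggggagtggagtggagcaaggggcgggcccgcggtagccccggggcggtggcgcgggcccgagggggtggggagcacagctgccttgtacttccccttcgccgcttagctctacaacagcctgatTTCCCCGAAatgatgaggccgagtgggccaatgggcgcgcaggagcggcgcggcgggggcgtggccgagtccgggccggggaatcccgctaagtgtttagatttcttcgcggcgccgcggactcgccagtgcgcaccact
Gbp2: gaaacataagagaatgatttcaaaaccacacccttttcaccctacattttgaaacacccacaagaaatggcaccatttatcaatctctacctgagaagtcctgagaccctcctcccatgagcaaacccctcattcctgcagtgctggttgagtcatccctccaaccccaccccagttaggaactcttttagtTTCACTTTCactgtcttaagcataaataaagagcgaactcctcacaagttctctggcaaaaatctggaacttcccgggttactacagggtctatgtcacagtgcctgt
Igtp: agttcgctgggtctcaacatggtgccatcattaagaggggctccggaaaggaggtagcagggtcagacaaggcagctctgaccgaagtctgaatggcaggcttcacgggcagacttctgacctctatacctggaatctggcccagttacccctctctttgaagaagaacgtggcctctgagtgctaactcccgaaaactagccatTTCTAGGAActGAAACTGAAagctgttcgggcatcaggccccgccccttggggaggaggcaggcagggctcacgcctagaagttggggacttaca
Tgtp1: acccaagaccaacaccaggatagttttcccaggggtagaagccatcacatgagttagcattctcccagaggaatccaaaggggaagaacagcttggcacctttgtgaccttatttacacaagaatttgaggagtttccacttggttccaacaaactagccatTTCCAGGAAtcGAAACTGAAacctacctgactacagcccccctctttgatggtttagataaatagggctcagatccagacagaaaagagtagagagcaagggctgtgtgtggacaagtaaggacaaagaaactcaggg
Tgtp2: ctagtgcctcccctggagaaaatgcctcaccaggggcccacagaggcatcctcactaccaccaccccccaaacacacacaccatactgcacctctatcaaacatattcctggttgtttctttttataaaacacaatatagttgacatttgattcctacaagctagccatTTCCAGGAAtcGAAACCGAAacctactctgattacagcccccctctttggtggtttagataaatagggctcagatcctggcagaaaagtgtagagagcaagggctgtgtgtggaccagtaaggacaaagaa
Ifitm3: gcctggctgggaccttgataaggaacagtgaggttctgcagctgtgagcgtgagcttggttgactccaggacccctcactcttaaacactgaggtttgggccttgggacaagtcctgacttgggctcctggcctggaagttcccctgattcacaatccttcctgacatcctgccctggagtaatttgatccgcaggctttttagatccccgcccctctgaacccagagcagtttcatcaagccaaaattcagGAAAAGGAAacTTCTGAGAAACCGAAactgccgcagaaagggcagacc

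Irf1 had a single GAS match that starts 90 bases upstream of the transcript start and no IRF core. Gbp2 had a single IRF core at 58 bases upstream and no GAS. In the GTPase genes Igtp, Tgtp1 and Tgtp2 the GAS match began 11 bases before the IRF core, at 45, 88 and 81 bases upstream. In Ifitm3 all matches lay after the transcript start, and its GAS match overlapped the second of its 2 IRF cores.

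The members spanned a wide range of expression, and most of the classical antiviral effectors were close to undetected. On a per-length scale (exon reads per kilobase of exon per 1000000 exon reads), the median over the 12 libraries was 134 for Psmb8, a subunit of the immunoproteasome, 108 for Ifitm2, 89.4 for Igtp and 52.2 for Tap1. On the same scale it was 12.2 for Irf1, 8.55 for Stat2, 6.11 for Irf9 and 0.772 for Irf7, the factor that amplifies type I interferon production. Ifit3, Ifit3b, Mx1, Oas1a, Oasl2, Rsad2 and Rtp4 stayed under 1 CPM in every library, had 0 reads in 1 to 6 libraries each and reached at most 4 to 15 reads. Their low counts kept these 7 out of the comparisons over all 12 libraries. Ifit1, another effector induced strongly by type I interferon, had 7 to 27 reads per library. Ifi44 had 37 and 28 reads in the NFATc1/ΔS and WT Th1 libraries of day 3.5, 0 reads in 8 libraries and 2 reads in each of the other two; 89.9% of its reads were intronic. In all, 27 of the 35 members passed the read filter of the culture comparisons with all libraries and of the genotype comparisons over pairs. Ifi44 made 28 in the comparisons by day within a culture and of the genotype effect by culture, through the 2 Th1 day 3.5 libraries alone.

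Of the type I interferon genes only Ifnb1, Ifna2, Ifna4, Ifne and Ifnk were looked at. Ifnb1, Ifna2, Ifna4 and Ifne had 0 reads in all 12 libraries, which allows up to 3 reads, or 0.224 CPM of the unscaled total in the shallowest library, and Ifnk had at most 1 read. Ifng, which encodes IFN-γ, had 38.3, 47.0, 186 and 53.6 CPM in Th1, against 4.18, 4.00, 1.33 and 2.37 CPM in Th2 and 3.05, 4.42, 2.39 and 2.40 CPM in Th17. The NFATc1/ΔS day 2.5 Th1 library was far above the other Th1 libraries in Ifng, and all 4 Th1 libraries were above all Th2 and Th17 libraries.

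**Figure D1:**
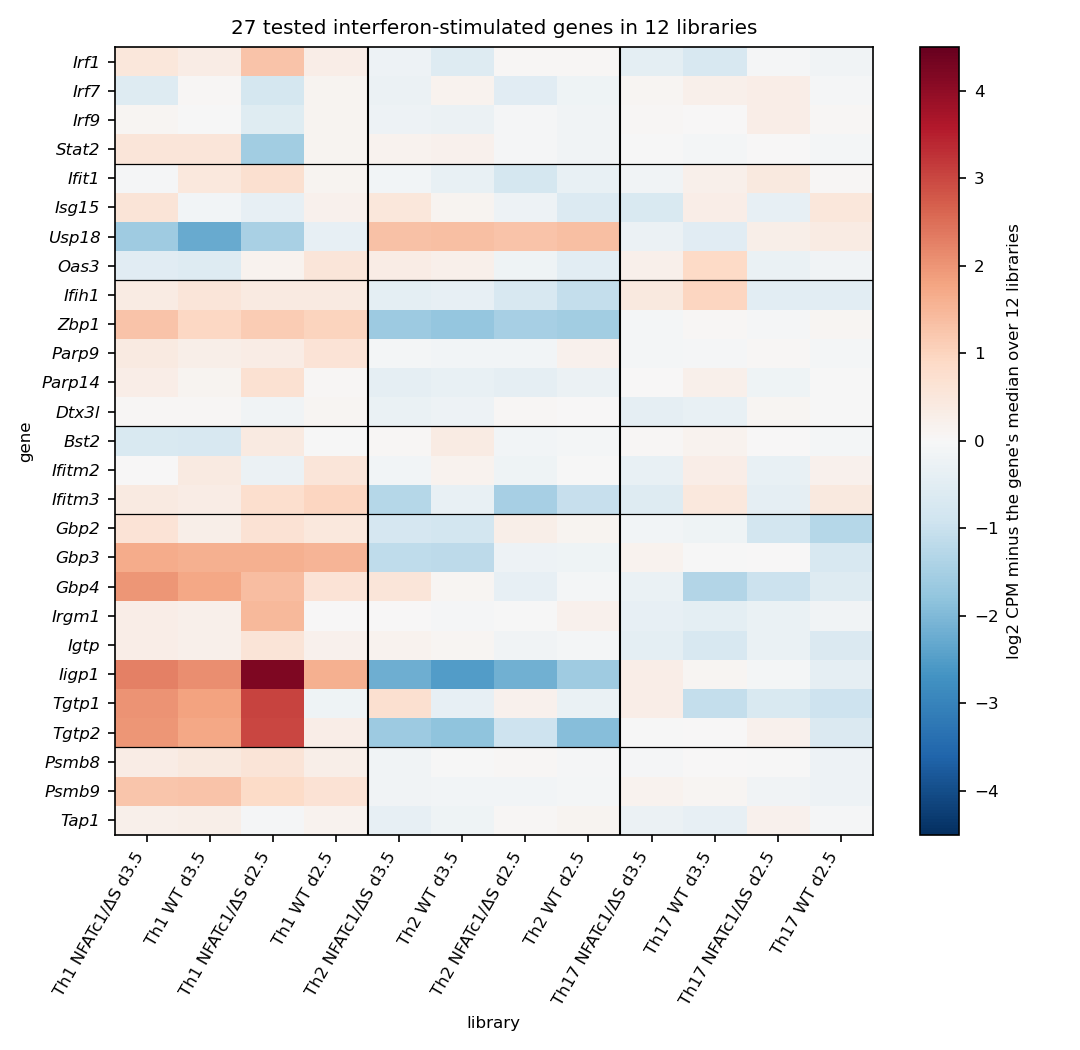
Heat map of the 27 tested members (rows, grouped by role) in the 12 libraries (columns, by culture, day and genotype), coloured by log2 CPM minus the gene's median over the 12 libraries. Zbp1, Gbp3, Iigp1 and Psmb9 are red in all 4 Th1 columns, Usp18 is red in all 4 Th2 columns, and the NFATc1/ΔS day 2.5 Th1 column stands apart with high Tgtp1, Tgtp2, Iigp1 and Irgm1 and low Stat2.

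Th1 cells had more RNA of many members than Th2 cells, among them 5 of 8 GTPases, the nucleic acid sensor Zbp1 and 2 of 3 antigen-processing genes. Of the 27 tested members 13 were higher in Th1 and 1 was lower at an adjusted p under 0.05 (quasi-likelihood test of edgeR, Benjamini-Hochberg adjusted, blocked by the 4 combinations of genotype and day). Among all 12797 genes tested, 14.6% were higher and 14.0% lower. Over the same libraries Th1 was below Th2 in 5 of 5 tested markers of B cells, 2 of 3 of dendritic cells, 1 of 2 of CD8 T and NK cells and in Tcf4, at -1.45 ± 0.18 (adjusted p 6.12e-04), and their part in the difference was not tested. Values given as a number ± SE with an adjusted p are log2 fold changes. The median log2 fold change was 0.50 over the 27 members and 0.07 over all genes. Against Th17 cells, 11 members were higher in Th1 and 1 was lower, beside 1.95% and 2.83% of all genes, with a median log2 fold change of 0.45 over the members and 0.03 over all genes. Th1 was also below Th17 in 3 of 5 markers of B cells, 1 of 3 of dendritic cells and 1 of 2 of CD8 T and NK cells, and Tcf4 did not pass; their part was not tested. These comparisons use the same 4 Th1 libraries. Between the 2 cultures with anti-IFN-γ, 2 members were higher and 4 lower in Th2 than in Th17, beside 6.36% and 5.67% of all genes. Here 2 of 5 markers of B cells, 1 of 3 of dendritic cells and Tcf4, at 1.04 ± 0.17 (adjusted p 0.00566), were higher in Th2, and their part was not tested.

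Without both day 2.5 Th1 libraries, 22 of 28 tested members passed between Th1 and Th2 (19 higher and 3 lower), beside 23.9% and 22.6% of all genes. Between Th1 and Th17 it was 19 of 28 (16 higher and 3 lower), beside 14.9% and 15.5%. In both counts 1 of the higher members is Ifi44, which entered these fits only through the Th1 libraries in which it is high, so its call carries no weight. Without all 4 Th1 libraries, 13 of 27 passed between Th2 and Th17 (6 higher and 7 lower), beside 20.2% and 21.2%. In the fits without both day 2.5 Th1 libraries, day 3.5 alone stands for Th1. In all of these fits more of all genes were called, as were more members.

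The calls differed in how many alternatives kept them. Zbp1, Tgtp2, Usp18, Psmb9, Iigp1, Gbp3, Ifitm3, Gbp4, Psmb8, Irf1 and Ifih1 were called for Th1 against Th2 in every alternative that could test them. Parp9 and Parp14 each lost that call in 2 of 20 alternatives (the highest adjusted p being 0.0598 and 0.0568) and Tgtp1 in 4 of 19 (0.0778), in each case with 1 library left out. For Th1 against Th17, Zbp1, Psmb9, Gbp4, Igtp and Tgtp2 were called in every alternative that could test them, while the other 7 lost the call in some. Gbp3 lost it in 1 of 20 alternatives, Irf1 in 3 of 20, Psmb8 and Iigp1 in 5 of 20 each, Tgtp1 in 5 of 19, Usp18 in 8 of 20 and Parp9 in 12 of 20. The highest adjusted p was 0.0588 for Gbp3, 0.0515 for Irf1, 0.0819 for Psmb8, 0.0654 for Iigp1, 0.0930 for Tgtp1, 0.101 for Usp18 and 0.136 for Parp9. Most of these losses came from leaving out 1 Th17 library. For Th2 against Th17, Zbp1 and Usp18 were called in all 21 alternatives. Tgtp2 lost that call in 4 of 20, Igtp in 7 of 21, Iigp1 in 8 of 21 and Ifitm3 in 10 of 21, with adjusted p up to 0.0662, 0.0856, 0.0913 and 0.141.

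Among the transcription factors only Irf1 passed between cultures with all libraries. Irf1, an early IFN-γ target that drives GTPase and antigen-presentation genes, had 74.9, 65.8, 128 and 65.3 CPM in Th1, against 45.4, 35.3, 54.9 and 54.5 CPM in Th2 and 39.3, 32.0, 51.0 and 46.7 CPM in Th17. Every Th1 library lay above every Th2 and Th17 library, and the NFATc1/ΔS day 2.5 Th1 library was the highest. Irf1 had a log2 fold change of 0.79 ± 0.15 (adjusted p 0.00532) against Th2 and 0.96 ± 0.15 (adjusted p 0.0118) against Th17. Stat2, the STAT of the type I interferon complex, had 70.9, 70.4, 16.03 and 52.2 CPM in Th1, 53.9, 54.7, 46.9 and 43.1 CPM in Th2 and 47.8, 45.6, 48.4 and 45.5 CPM in Th17. A single library, NFATc1/ΔS day 2.5 Th1, was low. With both day 2.5 Th1 libraries Stat2 did not pass (adjusted p 0.970 against Th2), and without them it exceeded the Th2 level in Th1 by 0.45 ± 0.09 (adjusted p 0.00179) and the Th17 level by 0.52 ± 0.09 (adjusted p 0.00135). Irf9, its DNA-binding partner, averaged 30.0 ± 5.77 CPM in Th1, 27.8 ± 1.73 CPM in Th2 and 33.7 ± 3.00 CPM in Th17 (SD, n = 4 each), with 21.5 CPM in the same NFATc1/ΔS day 2.5 Th1 library, and did not pass. Irf7 stayed between 1.57 and 3.44 CPM and passed in no comparison of cultures.

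Of the 12 antiviral effectors and feedback proteins, 4 could be tested and only Usp18 passed between cultures with all libraries. In both comparisons with Th1 its direction was opposite to that of the other called members. Usp18 removes ISG15 from proteins and blocks signalling from the type I receptor. It had 2.69, 1.64, 2.94 and 6.46 CPM in Th1, against 20.9, 21.7, 20.8 and 21.8 CPM in Th2 and 7.02, 5.82, 10.0 and 10.8 CPM in Th17. The Th2 values lay close together and above all others. The log2 fold change was -2.77 ± 0.29 (adjusted p 3.11e-04) for Th1 against Th2, -1.36 ± 0.28 (adjusted p 0.0286) for Th1 against Th17 and 1.41 ± 0.27 (adjusted p 0.0103) for Th2 against Th17. Of its reads 49.8% mapped uniquely, and on unique reads alone the call against Th2 held. Th2 cultures also had the highest levels of B cell and dendritic cell markers, and their part in the Usp18 level was not tested. Isg15, the ubiquitin-like protein that Usp18 removes, was between 1.29 and 3.31 CPM in all libraries and did not pass. Oas3, a synthetase of the RNase L activator, had 22.3, 21.4, 36.1 and 47.4 CPM in Th1. In unscaled reads it had 398, 327, 552 and 718 in Th1, 588, 544, 384 and 303 in Th2 and 724, 857, 349 and 407 in Th17. Th1 was thus below both other cultures on day 3.5 and above both on day 2.5. Oas3 passed only without both day 2.5 Th1 libraries, when day 3.5 alone stands for Th1. It was then lower in Th1 than in Th2 at -0.90 ± 0.19 (adjusted p 0.00564) and than in Th17 at -1.09 ± 0.19 (adjusted p 0.00394).

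**Figure D2:**
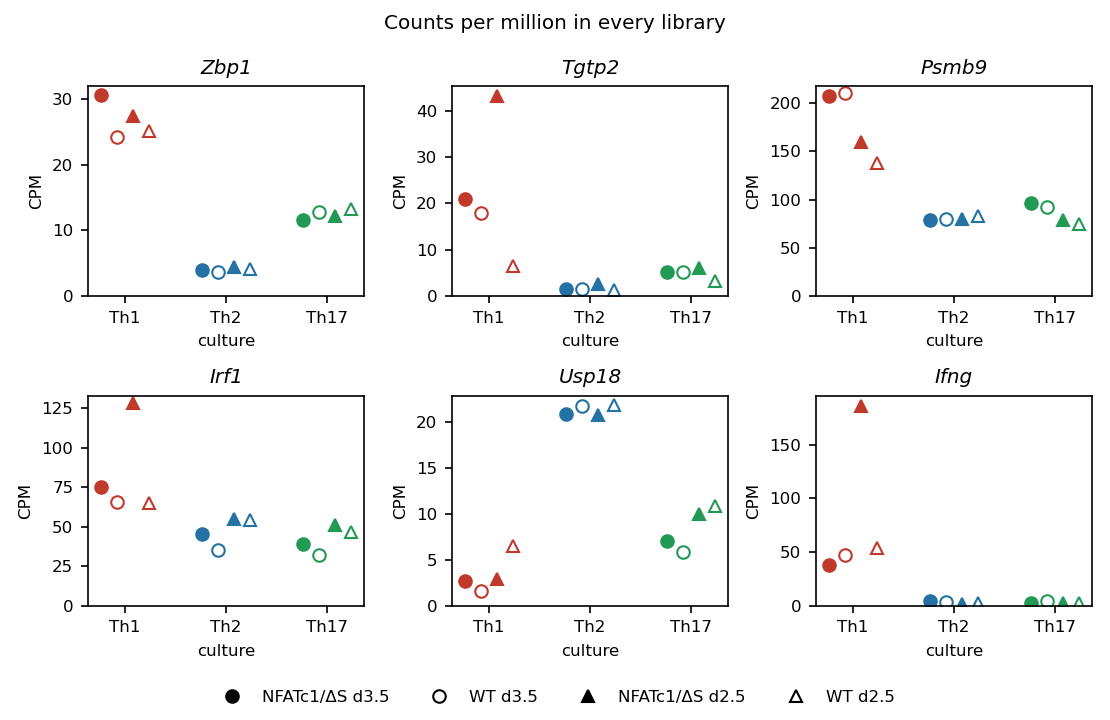
CPM of 5 members and of Ifng in each library, by culture. Filled symbols are NFATc1/ΔS and open symbols WT, circles are day 3.5 and triangles day 2.5. Zbp1, Tgtp2, Psmb9 and Irf1 lie above the Th2 and Th17 libraries in all 4 Th1 libraries, and Usp18 is highest in the 4 Th2 libraries.

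Of the 5 sensors and ADP-ribosylation factors, 4 were higher in Th1 than in Th2 and 2 than in Th17. Zbp1, which senses Z-form nucleic acids and can trigger necroptosis, separated all cultures. It had 30.6, 24.3, 27.5 and 25.2 CPM in Th1, 3.97, 3.65, 4.37 and 4.12 CPM in Th2 and 11.6, 12.8, 12.2 and 13.2 CPM in Th17, so no libraries of different cultures overlapped. Zbp1 had a log2 fold change of 2.74 ± 0.13 (adjusted p 1.71e-05) for Th1 against Th2, 1.11 ± 0.12 (adjusted p 0.00333) for Th1 against Th17 and -1.63 ± 0.13 (adjusted p 1.65e-04) for Th2 against Th17. Ifih1, the cytosolic RNA sensor MDA5, had 17.5, 20.0, 18.2 and 18.1 CPM in Th1, against 10.1, 10.6, 8.29 and 6.41 CPM in Th2, a log2 fold change of 1.10 ± 0.24 (adjusted p 0.00934). In Th17 it had 18.7, 26.996, 9.86 and 9.69 CPM, a wide spread between days, and it did not pass for Th1 against Th17 (adjusted p 0.456). Parp14, an ADP-ribosyltransferase, was higher in Th1 against Th2 by 0.65 ± 0.15 (adjusted p 0.0137). Parp9 was higher in Th1 against Th2 by 0.44 ± 0.10 (adjusted p 0.0119) and against Th17 by 0.45 ± 0.10 (adjusted p 0.0414). Its partner Dtx3l, an E3 ligase encoded next to it on the other strand, passed only without both day 2.5 Th1 libraries, at 0.35 ± 0.07 (adjusted p 0.00201) against Th2. The 2 genes overlap and the strand used in counting is not given in the sources used here, so reads in the overlap cannot be told apart.

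Of the 3 membrane proteins that restrict virus entry or release, Ifitm3 was higher in Th1 than in Th2. It had 10.5, 10.0, 13.3 and 15.7 CPM in Th1, against 3.20, 6.25, 2.74 and 3.74 CPM in Th2 and 5.27, 11.0, 5.98 and 10.7 CPM in Th17. Th1 and Th2 libraries did not overlap, while the WT Th17 libraries reached Th1 levels. The log2 fold change was 1.69 ± 0.27 (adjusted p 0.00238) for Th1 against Th2 and -1.02 ± 0.26 (adjusted p 0.0372) for Th2 against Th17, and Th1 against Th17 did not pass (0.67 ± 0.26, adjusted p 0.152). Bst2, or tetherin, which also marks plasmacytoid dendritic cells, had 28.6, 28.1, 61.2 and 45.4 CPM in Th1, 48.1, 59.3, 42.5 and 43.0 CPM in Th2 and 47.8, 51.6, 46.7 and 43.3 CPM in Th17. Only the day 3.5 Th1 libraries were low, and without the day 2.5 Th1 libraries Bst2 was lower in Th1 than in Th2 at -0.87 ± 0.10 (adjusted p 3.89e-05). Ifitm2 did not pass between cultures.

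The GTPases, which attack the membranes of vacuoles that hold pathogens, included the members with the 2 largest log2 fold changes for Th1 against Th2. All 8 had a positive log2 fold change for Th1 against both other cultures. Of them 5 passed against Th2 and 6 against Th17, beside 14.6% and 1.95% of all genes higher in Th1. The 8 may not be independent measures, since few reads of Tgtp1, Tgtp2, Igtp and Gbp4 mapped uniquely (0.03%, 0.22%, 6.42% and 13.4%). Iigp1, an immunity-related GTPase, had 7.46, 6.54, 28.9 and 4.62 CPM in Th1, against 0.209, 0.141, 0.222 and 0.382 CPM in Th2 and 1.81, 1.54, 1.34 and 1.06 CPM in Th17. The Th2 values rest on 3, 2, 3 and 5 reads. Its log2 fold change was 5.32 ± 0.58 (adjusted p 3.90e-04) for Th1 against Th2, 2.68 ± 0.47 (adjusted p 0.0180) for Th1 against Th17 and -2.64 ± 0.61 (adjusted p 0.0242) for Th2 against Th17. Tgtp2 had 20.9, 17.9, 43.2 and 6.53 CPM in Th1, against 1.60, 1.41, 2.67 and 1.298 CPM in Th2 and 5.22, 5.26, 5.98 and 3.25 CPM in Th17, with log2 fold changes of 3.50 ± 0.31 (adjusted p 1.54e-04), 1.95 ± 0.28 (adjusted p 0.00921) and -1.55 ± 0.31 (adjusted p 0.0132) in the same order of comparisons. For Iigp1 and Tgtp2 no libraries of different cultures overlapped, and the NFATc1/ΔS day 2.5 Th1 library was the highest.

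Tgtp1 had 34.7, 30.3, 70.5 and 7.39 CPM in Th1, against 14.1, 6.53, 9.85 and 6.95 CPM in Th2 and 10.5, 4.00, 5.30 and 4.45 CPM in Th17. The WT day 2.5 Th1 library lay within the range of the Th2 and Th17 libraries. Tgtp1 had a log2 fold change of 1.76 ± 0.44 (adjusted p 0.0187) against Th2 and 2.39 ± 0.46 (adjusted p 0.0237) against Th17. Of the reads of Tgtp1 and Tgtp2 only 0.03% and 0.22% mapped uniquely, so their levels depend on how shared reads were assigned and the 2 genes cannot be separated with confidence.

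Gbp3, a guanylate-binding protein, had 22.6, 21.4, 21.3 and 20.4 CPM in Th1, against 3.06, 3.02, 5.85 and 6.03 CPM in Th2 and 7.85, 6.87, 7.02 and 4.17 CPM in Th17. The 4 Th1 libraries lay close together, about as high on day 2.5 as on day 3.5. The log2 fold change was 2.27 ± 0.29 (adjusted p 7.84e-04) against Th2 and 1.73 ± 0.28 (adjusted p 0.0138) against Th17. Gbp4 averaged 35.8 ± 13.2 CPM in Th1, 13.1 ± 3.63 CPM in Th2 and 7.39 ± 2.32 CPM in Th17 (SD, n = 4 each), and was higher in Th1 by 1.44 ± 0.25 (adjusted p 0.00404) against Th2 and 2.25 ± 0.27 (adjusted p 0.00427) against Th17. Only 13.4% of its reads were unique, and it overlaps Gbp8 and Gbp9. Igtp, an abundant GTPase, averaged 245 ± 30.8 CPM in Th1, 195 ± 18.8 CPM in Th2 and 135 ± 16.9 CPM in Th17 (SD, n = 4 each). No Igtp values of different cultures overlapped, and it passed for Th1 against Th17 at 0.86 ± 0.12 (adjusted p 0.00729) and for Th2 against Th17 at 0.53 ± 0.12 (adjusted p 0.0189), with 6.42% unique reads. Irgm1 was at 82.8 CPM in the NFATc1/ΔS day 2.5 Th1 library and between 21.9 and 36.6 CPM in the other 11. It passed only without both day 2.5 Th1 libraries, at 0.65 ± 0.08 (adjusted p 2.36e-04) for Th1 against Th17. Gbp2 averaged 98.8 ± 11.6 CPM in Th1, 59.4 ± 22.4 CPM in Th2 and 48.0 ± 17.1 CPM in Th17 (SD, n = 4 each) and did not pass, with a wide spread between days in Th2 and Th17.

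Of the antigen-processing members, the immunoproteasome subunits Psmb9 and Psmb8 were higher in Th1. Psmb9 had 208, 211, 159.7 and 138 CPM in Th1, against 78.5, 79.5, 79.7 and 82.5 CPM in Th2 and 96.4, 91.9, 78.5 and 75.1 CPM in Th17. The log2 fold change was 1.14 ± 0.12 (adjusted p 3.51e-04) against Th2 and 1.06 ± 0.12 (adjusted p 0.00378) against Th17, with no overlap between Th1 and either culture. Psmb8 was higher in Th1 by 0.45 ± 0.08 (adjusted p 0.00504) against Th2 and 0.48 ± 0.08 (adjusted p 0.0179) against Th17. Of its reads 51.3% mapped uniquely, and it overlaps Gm20496 on the other strand. Tap1, a subunit of the peptide transporter, shares a start region with Psmb9 on the opposite strand: the promoter windows of the 2 genes have 275 bases in common. The 2 genes also overlap, so reads in the overlap cannot be told apart, as for Parp9 and Dtx3l. Tap1 had 342, 354, 281 and 328 CPM in Th1, 226, 257, 307 and 319.6 CPM in Th2 and 248, 228, 333 and 283 CPM in Th17, and passed only without both day 2.5 Th1 libraries, at 0.53 ± 0.09 (adjusted p 6.89e-04) against Th2 and 0.55 ± 0.09 (adjusted p 0.00107) against Th17.

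**Figure D3:**
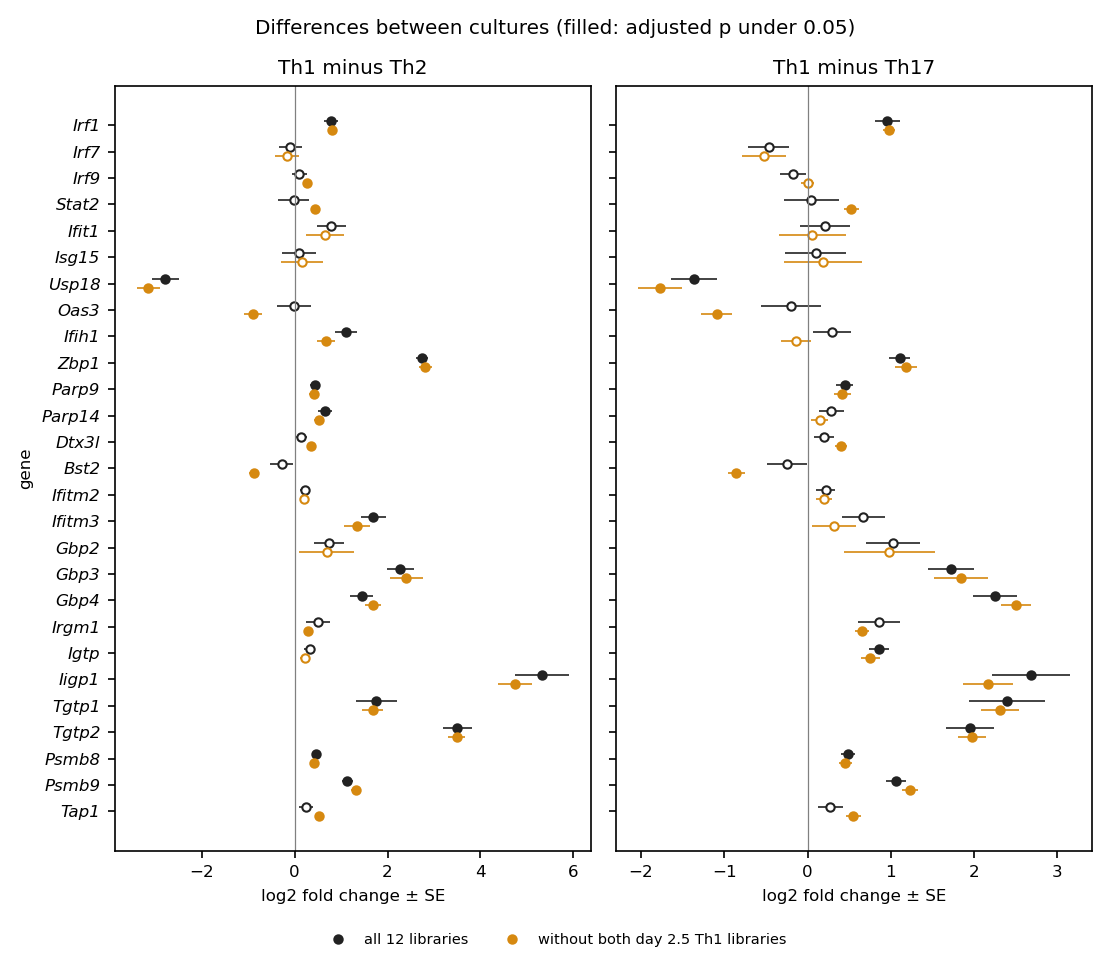
Log2 fold change ± SE of the 27 tested members for Th1 minus Th2 (left) and Th1 minus Th17 (right), with all 12 libraries (black) and without both day 2.5 Th1 libraries (orange). Filled points have an adjusted p under 0.05. Most called members lie to the right of 0 and Usp18 to the left in both panels, while Oas3, Bst2, Stat2 and Tap1 pass only in the orange fit.

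Some genes upstream in the pathway differed between Th1 and the other cultures, in both directions. Of 22 listed interferon, receptor and signalling genes 17 could be tested. Between Th1 and Th2, 5 were higher and 4 lower, beside 14.6% and 14.0% of all genes. Between Th1 and Th17, 2 were higher and 1 lower, beside 1.95% and 2.83%. Between Th2 and Th17, 1 was higher and none lower, beside 6.36% and 5.67%, so the higher count is near the share of all genes. Th1 exceeded Th2 in Ifng by 4.57 ± 0.61 (adjusted p 0.00101) and Th17 by 4.56 ± 0.60 (adjusted p 0.00676) on the log2 scale. Socs1, a feedback inhibitor of the pathway, was lower in Th1 than in Th2 at -1.26 ± 0.30 (adjusted p 0.0144).

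Jak2, a kinase of the IFN-γ receptor, had 240.0, 230.2, 158 and 170.3 CPM in Th1, against 783, 824, 697 and 863 CPM in Th2 and 306, 308, 329 and 358 CPM in Th17. The Th2 libraries were the highest, at log2 fold changes of -1.99 ± 0.15 (adjusted p 6.06e-05) for Th1 against Th2 and 1.28 ± 0.14 (adjusted p 8.56e-04) for Th2 against Th17. Of the IFN-γ receptor chains, Ifngr2 was lower in Th1 than in Th2 at -1.47 ± 0.39 (adjusted p 0.0229) and Ifngr1 higher by 0.46 ± 0.12 (adjusted p 0.0247). The type I receptor genes Ifnar1 and Ifnar2 and the kinases Jak1 and Tyk2 did not pass in any comparison of cultures with all libraries, with adjusted p of 0.0604, 0.990, 0.135 and 0.388 for Th1 against Th2. Among 46 further interferon-inducible genes, 38 were tested. In Th1 against Th2, 12 were higher and 2 lower, beside 14.6% and 14.0% of all genes. In Th1 against Th17, 5 were higher and 0 lower, beside 1.95% and 2.83%. In Th2 against Th17, 2 were higher, near the 6.36% of all genes, and 8 lower, beside 5.67%. Those of smallest p included Gbp7, at 3.50 ± 0.24 (adjusted p 4.43e-05) against Th2 and 3.32 ± 0.23 (adjusted p 8.31e-04) against Th17. Ifi203 is counted in all of these comparisons, and Gbp10 in those with Th2. Both entered the fits only through the Th1 libraries in which they are high, so their calls carry no weight. In Th2, Ifi203 had 5 to 8 reads per library and Gbp10 had 0.

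The NFATc1/ΔS genotype was compared with WT in 6 pairs of libraries that share a culture and a day. The labels do not say whether the pairs come from different mice. The spread behind the genotype tests is thus that among cultures and days, and it may not cover the spread among mice. Over the 6 pairs no member passed, and of all genes 0% were higher and 0% lower by edgeR. At an unadjusted p under 0.05 there were 716 genes, while DESeq2 called 21 genes and limma-voom 1. The 5 members of smallest p were Ifitm2 at -0.47 ± 0.09 (adjusted p 0.751), Ifitm3 at -0.56 ± 0.17, Gbp2 at 0.20 ± 0.07, Tgtp1 at 1.11 ± 0.38 and Irf1 at 0.33 ± 0.12 (adjusted p 0.823 for each of the last 4). Ifitm2 was lower in NFATc1/ΔS in 6 of 6 pairs, and Irf1, Gbp2 and Tgtp1 were higher in 6 of 6. Ifitm2 was called by DESeq2, and by edgeR without the Th1 day 2.5 pair.

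The Th1 day 2.5 pair differed far more than the others. The SD of log2 CPM differences over 27 members was 1.14 in that pair, against 0.30 to 0.51 in the other 5, and 6 members differed by more than 1 log2 unit. In that pair Tgtp1 had 70.5 CPM in NFATc1/ΔS, against 7.39 CPM in WT. Iigp1 had 28.9 CPM in NFATc1/ΔS, against 4.62 CPM in WT, and Irgm1 82.8 CPM, against 30.3 CPM. Stat2 went the other way, with 16.03 CPM in NFATc1/ΔS, against 52.2 CPM in WT. Ifng was at 186 CPM in NFATc1/ΔS and 53.6 CPM in WT in the same pair. The Th1 pair of day 3.5 did not repeat these differences: Tgtp1 had 34.7 CPM in NFATc1/ΔS, against 30.3 CPM in WT, and Stat2 70.9 CPM, against 70.4 CPM. With 1 library each, genotype and library cannot be told apart in this pair.

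**Figure D4:**
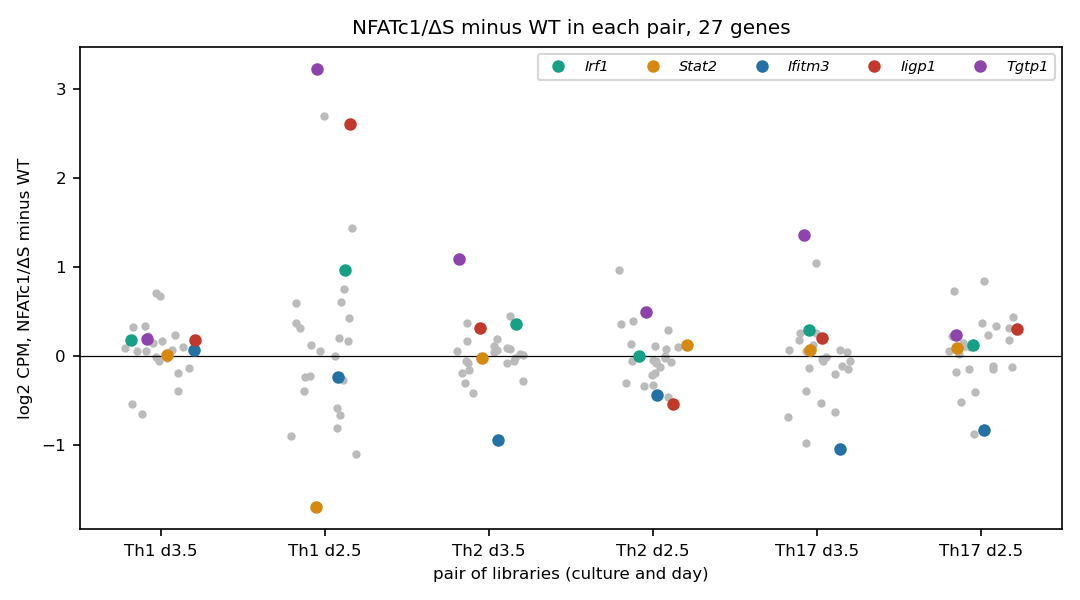
Difference in log2 CPM, NFATc1/ΔS minus WT, of the 27 tested members (points) in each of the 6 pairs of libraries; 5 members are coloured. The Th1 day 2.5 pair has the widest spread (SD 1.14), with Tgtp1 at 3.23 and Stat2 at -1.69, and Ifitm3 lies below 0 in all 4 Th2 and Th17 pairs.

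Within the 4 pairs of Th2 and Th17, 3 of 27 members passed, 1 higher and 2 lower, beside 0.749% and 1.38% of all genes. The choice of these pairs was made with earlier results of these data known. It also leaves out the Th1 day 3.5 pair, which did not stand apart (SD 0.30 over the members). Ifitm3 was lower in NFATc1/ΔS. In Th2 it had 3.20 CPM in NFATc1/ΔS, against 6.25 CPM in WT, on day 3.5 and 2.74 CPM, against 3.74 CPM, on day 2.5. In Th17 it had 5.27 CPM in NFATc1/ΔS, against 11.0 CPM in WT, on day 3.5 and 5.98 CPM, against 10.7 CPM, on day 2.5. All 4 pairs went the same way, and the log2 fold change was -0.86 ± 0.15 (adjusted p 0.00466). The Th1 pairs were at 0.08 on day 3.5 and -0.23 on day 2.5 in log2 CPM, and the genotype effect was not shown to differ between cultures for Ifitm3 (adjusted p 0.976).

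Ifitm2, the neighbouring paralogue, had 62.2 and 59.3 CPM in NFATc1/ΔS Th2, against 75.6 and 67.7 CPM in WT Th2, on day 3.5 and day 2.5. In NFATc1/ΔS Th17 it had 54.4 and 54.4 CPM, against 83.8 and 77.5 CPM in WT Th17. The NFATc1/ΔS libraries were lower in each pair, with a log2 fold change of -0.40 ± 0.07 (adjusted p 0.00910). Only 16.2% of Ifitm2 reads mapped uniquely, against 97.5% for Ifitm3, and Ifitm2 did not pass on unique reads, at a log2 fold change of -0.16. Ifitm1, a further family member outside the 35, was also lower in NFATc1/ΔS, at -0.97 ± 0.21 (adjusted p 0.0219). Tgtp1 was higher by 0.84 ± 0.17 (adjusted p 0.0254) in 4 of 4 pairs, on reads that are nearly all shared with other loci. The members next in p, Irf1 at 0.19 ± 0.07 (adjusted p 0.203) and Gbp2 at 0.17 ± 0.07 (adjusted p 0.269), did not pass. All 3 calls were lost without the Th17 day 3.5 pair and without the pair blocks, and Tgtp1 also without the Th2 day 3.5 pair.

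Over the same pairs 3 of 5 Th17 markers, 2 of 5 Th2 markers, 1 of 5 Th1 markers and 1 of 5 B cell markers were lower in NFATc1/ΔS, and their part in the 3 calls was not tested. Of the pathway genes none of 17 passed over these 4 pairs, and of 35 further interferon-inducible genes 1 was higher, Gbp5 at 0.37 ± 0.09 (adjusted p 0.0356), and 1 lower, Ifitm1. Of all genes, 0.749% were higher and 1.38% lower. No member passed for a genotype effect that differs by culture (0% of all genes, with 324 genes at an unadjusted p under 0.05). Without the Th1 day 3.5 pair, which leaves the day 2.5 pair as the only one of Th1, 12 members passed, beside 26.1% of all genes. None passed for one that differs by day either (0% higher and 0% lower, with 945 genes at an unadjusted p under 0.05). The members of smallest p were Parp14, Ifitm3, Isg15, Oas3 and Irf7 by culture (adjusted p 0.976 each) and Tgtp2, Psmb8, Ifih1, Bst2 and Usp18 by day (adjusted p 0.629 each).

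Day 3.5 was compared with day 2.5 in pairs of libraries that share culture and genotype. Over all 6 pairs no member passed, and 0% of all genes were higher and 0% lower by edgeR. At an unadjusted p under 0.05 there were 1333 genes; DESeq2 called 143 and limma-voom 0. The 5 members of smallest p were Irf1 at -0.44 ± 0.11 (adjusted p 0.328), Ifih1 at 0.57 ± 0.20, Psmb9 at 0.24 ± 0.11, Usp18 at -0.55 ± 0.26 and Gbp4 at 0.48 ± 0.24 (adjusted p 0.526). The day effect differed by culture for 3 of 28 members (Gbp2 with adjusted p 0.0128, Oas3 with 0.0290 and Bst2 with 0.0470), beside 4.83% of all genes.

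In Th1, 2 of 28 members were lower on day 3.5 and none higher, beside 2.70% lower and 3.00% higher of all genes. Bst2 had 28.6 and 28.1 CPM in Th1 on day 3.5, against 61.2 and 45.4 CPM on day 2.5 (NFATc1/ΔS, then WT), a log2 fold change of -0.90 ± 0.16 (adjusted p 0.0256). Oas3 had 22.3 and 21.4 CPM in Th1 on day 3.5, against 36.1 and 47.4 CPM on day 2.5, a log2 fold change of -0.93 ± 0.19 (adjusted p 0.0410). Both Th1 genotypes were lower on day 3.5 in both genes, and both calls were lost when any of the 4 Th2 or Th17 pairs was left out, with adjusted p up to 0.0814 for Bst2 and 0.132 for Oas3. Oas3 also lost its call on exon reads. Ifi44 had 37 and 28 reads on day 3.5, against 0 and 0 on day 2.5, where a count of 0 allows up to 3 reads per library; no p is given, since it entered the test only through those day 3.5 libraries. Psmb9 (0.49 ± 0.12, adjusted p 0.0629) and Stat2 (1.26 ± 0.37, adjusted p 0.0964) did not pass. Since both day 2.5 Th1 libraries stand apart from the day 3.5 Th1 libraries and differ from each other, day and library cannot be told apart in Th1. Of the other pathway genes in Th1, Ifngr2 was higher on day 3.5 by 1.33 ± 0.21 (adjusted p 0.0190) and Irf3, the factor that induces type I interferon, lower at -0.72 ± 0.14 (adjusted p 0.0368).

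**Figure D5:**
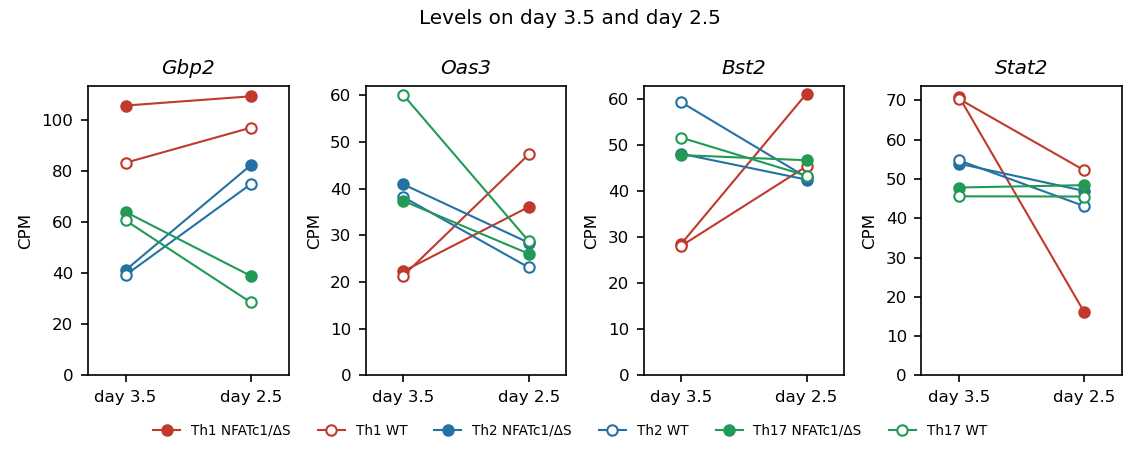
CPM of Gbp2, Oas3, Bst2 and Stat2 on day 3.5 (left of each panel) and day 2.5 (right), with a line for each culture and genotype (filled, NFATc1/ΔS; open, WT). Gbp2 is lower on day 3.5 in Th2 and higher in Th17, Oas3 and Bst2 are lower on day 3.5 in Th1, and Stat2 is low in a single library.

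In Th2 and Th17 no member passed in the fit of all 12 libraries, beside 0% of all genes higher and 0% lower in Th2 and 0% and 0% in Th17. At an unadjusted p under 0.05 there were 2433 genes in Th2 and 2770 in Th17. DESeq2 called 314 in Th2 and 489 in Th17, and limma-voom 2 and 0. The 5 members of smallest p in Th2 were Gbp2 (adjusted p 0.0890), Gbp3, Oas3, Tap1 and Dtx3l (adjusted p 0.262), and in Th17 Gbp2 (adjusted p 0.0797), Ifih1, Oas3, Dtx3l and Tap1 (adjusted p 0.173). In the fit of the 8 Th2 and Th17 libraries alone, 9 members passed in Th2 (4 higher and 5 lower), beside 13.5% and 14.6% of all genes, and 8 in Th17 (4 higher and 4 lower), beside 16.1% and 16.2%. The members were thus called about as often as genes at large, so these counts are not particular to them. The day effect differed between Th2 and Th17 for Gbp2 and Gbp3 in that fit, beside 1.49% of all genes.

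Gbp2 moved in opposite directions. It had 41.2 and 39.3 CPM in Th2 on day 3.5, against 82.3 and 74.9 CPM on day 2.5 (NFATc1/ΔS, then WT). In Th17 it had 64.0 and 60.7 CPM on day 3.5, against 38.9 and 28.6 CPM on day 2.5. Among the 8 libraries the log2 fold change of Gbp2 was -0.97 ± 0.10 (adjusted p 2.03e-05) in Th2 and 0.90 ± 0.10 (adjusted p 3.87e-05) in Th17. Gbp3 was lower on day 3.5 in Th2 at -0.96 ± 0.23 (adjusted p 0.00660) and did not pass in Th17.

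In the fit of 8 libraries, where members were called about as often as all genes, several members moved the same way in both cultures. Irf1 was lower on day 3.5 at -0.45 ± 0.10 (adjusted p 0.00641) in Th2 and -0.46 ± 0.10 (adjusted p 0.00461) in Th17. Tap1 was lower at -0.38 ± 0.08 (adjusted p 0.00441) in Th2 and -0.37 ± 0.08 (adjusted p 0.00412) in Th17, and Dtx3l was also lower in both. Oas3 was higher by 0.62 ± 0.13 (adjusted p 0.00444) in Th2 and 0.80 ± 0.13 (adjusted p 6.55e-04) in Th17, opposite in sign to its change in Th1. Ifih1 was higher in Th17 by 1.21 ± 0.16 (adjusted p 1.42e-04) and did not pass in Th2. Usp18 was lower on day 3.5 in Th17 at -0.69 ± 0.15 (adjusted p 0.00372), and in Th2 it stayed between 20.8 and 21.8 CPM in all 4 libraries. Over the same 8 libraries, 5 B cell markers were tested for the day effect, and 1 was higher in Th2 and 3 were lower in Th17 on day 3.5; their part in these changes was not tested.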

How the data were processed

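RNA was measured in 12 libraries of mouse CD4+ T cell cultures, 1 for each combination of 3 cultures, 2 genotypes and 2 days, so the only replicate error is the spread among libraries that share the other factors. The unit is whole-number read counts per gene as deposited by the authors, with separate counts of unique, exon and intron reads per the file headers; the genome build is GRCm38 per the submitters' processing notes, and for the aligner and counter no name is given in the sources used here. Other normalized columns were not used.

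All reads of a gene were tested with edgeR 4.0.16 (R 4.3.3, quasi-likelihood, robust, TMM scaling) after a read filter (minimum count 10, minimum total 15), two-sided, with Benjamini-Hochberg adjustment over all genes tested and a threshold of 0.05. The SE of a log2 fold change came from the F statistic. Culture fits took genotype by day as 4 blocks, and genotypes and days in pairs of libraries that share the other factors. The pairing comes from the labelled factors, not from replicate numbers. CPM is reads of a gene per 1000000, over the library's total gene reads times its TMM factor. Alternatives were RLE scaling, DESeq2 1.42.0, limma-voom (limma 3.58.1), no filter, unique reads, exon reads, no blocks, and leaving out libraries or pairs. The model code was tested on simulated data. Promoter windows are from RefSeq, build GRCm38.p6.

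The 35 members, all gene lists and the genotype fit of the Th2 and Th17 pairs were chosen with earlier results of these data known. Fold changes are given for members that passed; where fewer than 5 passed, the 5 of smallest p are given. Intervals from a count of 0 cover counting error only.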

Additional observations from a re-analysis of the deposited data

Results flagged for a closer look

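In 27 tested members, the 6 differences in log2 CPM between NFATc1/ΔS and WT (1 per pair of libraries) were examined for a value far from the other 5, and 7 members had one. Chance alone flags about 1 in 20 such groups. In 6 of them the value that stood apart was the Th1 day 2.5 pair: Tgtp2 at 2.70, Iigp1 at 2.61, Irgm1 at 1.44, Irf1 at 0.97, Irf9 at -0.66 and Stat2 at -1.69. These 6 values come from the same 2 libraries and are not independent of each other. The Th17 day 2.5 pair stood apart for Gbp3, at 0.73.

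The day effect differed between cultures for Gbp2 (adjusted p 0.0128), Oas3 (adjusted p 0.029) and Bst2 (adjusted p 0.047) by edgeR's quasi-likelihood F test with Benjamini-Hochberg adjustment. Without the 4 Th1 libraries Gbp2 differed between Th2 and Th17 (adjusted p 1.97e-05), while Oas3 and Bst2 did not pass (adjusted p 0.774 and 0.684).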

How the results depend on the processing

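Of the values of named members under the alternatives, 1035 kept their direction and their side of the threshold, 107 were no longer past it, 59 were newly past it and 0 reversed. With all libraries the members called were 14, 12 and 6 for Th1 against Th2, Th1 against Th17 and Th2 against Th17. Without both day 2.5 Th1 libraries they were 22, 19 and 13 (Ifi44 is among the 22 and the 19, and entered only through Th1 libraries in which it is high), and without the 4 Th1 libraries 13 for Th2 against Th17, 6 (in place of 0) for day over 6 pairs, 9 (0) for day in Th2 and 8 (0) for day in Th17. Leaving out 1 library at a time gave 5 to 14 members for Th1 against Th17 and 2 to 10 for Th2 against Th17. Leaving out 1 pair gave 0 to 1 for genotype over 6 pairs, 0 to 3 for genotype in Th2 and Th17, 0 to 12 for day in Th1 (2 with all), 0 to 9 for day in Th2, 0 to 8 for day in Th17, 0 to 18 for day by culture (3 with all) and 0 to 12 for genotype by culture (0 with all). Where a culture was left with 1 pair, that pair was assumed to vary like the others.

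DESeq2 called 1 member for genotype over 6 pairs, 4 for day in Th1, 1 for day in Th2 and 3 for day in Th17. Genotype in Th2 and Th17 had 3 members called in the main test, 1 on unique reads and 0 with no replicate block. Day in Th1 had 1 on exon reads, and with no read filter day had 1 in Th2 and 2 in Th17. The causes were not tested.

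Over all genes, calls without both day 2.5 Th1 libraries were 6235 against 3656 for Th1 against Th2, 4082 against 611 for Th1 against Th17 (DESeq2 with all libraries, 1652) and 5518 against 1539 for Th2 against Th17 (5152 without the 4 Th1 libraries). For genotype in Th2 and Th17 there were 630 with no read filter, against 264. For day by culture DESeq2 gave 1506, no read filter 1194 and the 8 Th2 and Th17 libraries 195, against 652. For day the 8 libraries gave 5022 over the pairs (DESeq2 with all libraries, 143), 3679 in Th2 (DESeq2 314, no read filter 115) and 4236 in Th17 (DESeq2 489, no read filter 232), against 0 each. Leaving out 1 library gave 2042 to 4206 genes for Th1 against Th2, 166 to 928 for Th1 against Th17 and 719 to 2954 for Th2 against Th17. Leaving out 1 pair gave 124 to 239 for genotype in Th2 and Th17, 273 to 6253 for day in Th1 (769 with all), 57 to 6560 for day by culture and 0 to 3583 for genotype by culture (0 with all), where the 3583 genes and 12 members came without the Th1 day 3.5 pair.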
